A study of Drosophila melanogaster with 13 samples.

Results

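The transcripts described here encode ion channels, cation pumps and cation-chloride cotransporters, 47 genes of the 16727 in the count table. They were taken as a list of gene symbols, with no measured value in the rule. The table held 43 of them under the listed symbol and 4 under an earlier one, namely SERCA as Ca-P60A, Itpr as Itp-r83A, Orai as olf186-F and NKCC as CG31547. The study is about secondary cells, large vacuole-filled cells of the epithelium at the distal end of each male accessory gland of Drosophila melanogaster, in males aged 5 to 11 days. Ribosome immunoprecipitates (ribosome IP, 3 libraries) were made from glands of UAS GFP-RPL10Ab, D1:GAL4 males with an anti-GFP antibody, and 1 control IP from glands of UAS GFP, D1:GAL4 males. D1 males carried the mutation iab-6cocuD1 in the Bithorax complex, and miP males a deletion of the micropeptide MSAmiP. D1, miP and wild-type males all carried D1:GAL4, UAS-GFP, and their glands were treated with a protease and GFP-positive cells sorted, with 3 libraries for each genotype. The driver D1:GAL4 is active in secondary cells, so tagged ribosomes and GFP mark the cells in which it is active. The IPs were made from whole glands and held RNA of other cells too, and the control IP has no tagged ribosomes.

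Secretory epithelia move water and salt by ion gradients. The Na,K-ATPase exports sodium and imports potassium, potassium channels let the potassium leave again and set the membrane potential, and chloride enters through cation-chloride cotransporters and leaves through chloride channels. Calcium is kept low in the cytosol by pumps of the endoplasmic reticulum and the plasma membrane, and its release and re-entry through store and surface channels trigger exocytosis.

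Library totals ran between 3701155 counts (the control IP) and 26088798 counts. Levels are given as counts per 1000000 counts of the library (CPM). Levels of different genes are compared only as TPM, in which counts are divided by exonic length before they are scaled to a common sum. The sum of 6 secondary cell markers was 19610 to 55777 CPM in the ribosome IPs and 4697 CPM in the control IP. It was 191595 to 222537 CPM in D1, 251343 to 305489 CPM in miP and 250845 to 266842 CPM in wild-type cells. The Bithorax gene abd-A, one of these markers, was at 0.0476, 0 and 0.0938 CPM in D1, against 175, 202 and 210 CPM in wild type. The 5 testis markers summed to 4629 to 6071 CPM in the ribosome IPs and 7751 CPM in the control IP, but to at most 0.567 CPM in D1, 1.20 CPM in miP and 1.70 CPM in wild-type cells. In bulk RNA, fewer cells with a transcript and less transcript per cell cannot be told apart.

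Pumps, intracellular calcium proteins, chloride channels and 1 cotransporter made up most of the channel and pump RNA of sorted cells. At 1 CPM or more in every library of a group there were 32 of 47 genes in the ribosome IPs, 35 in the control IP, 23 in D1, 22 in miP and 17 in wild type. The same threshold was passed by 62.9% of all genes in the ribosome IPs, 67.6% in the control IP, 39.8% in D1, 37.2% in miP and 37.1% in wild type. The 17 genes detected in wild type were Atpalpha, nrv1, nrv2, SERCA, PMCA, Itpr, Stim, Orai, Irk1, Ih, ClC-a, ClC-b, ClC-c, Best1, Ncc69, Trpm and Piezo. No voltage-gated sodium or calcium channel was among them. Trpml, a channel of endosomes and lysosomes, had 0 counts in all 13 libraries.

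**Figure D1:**
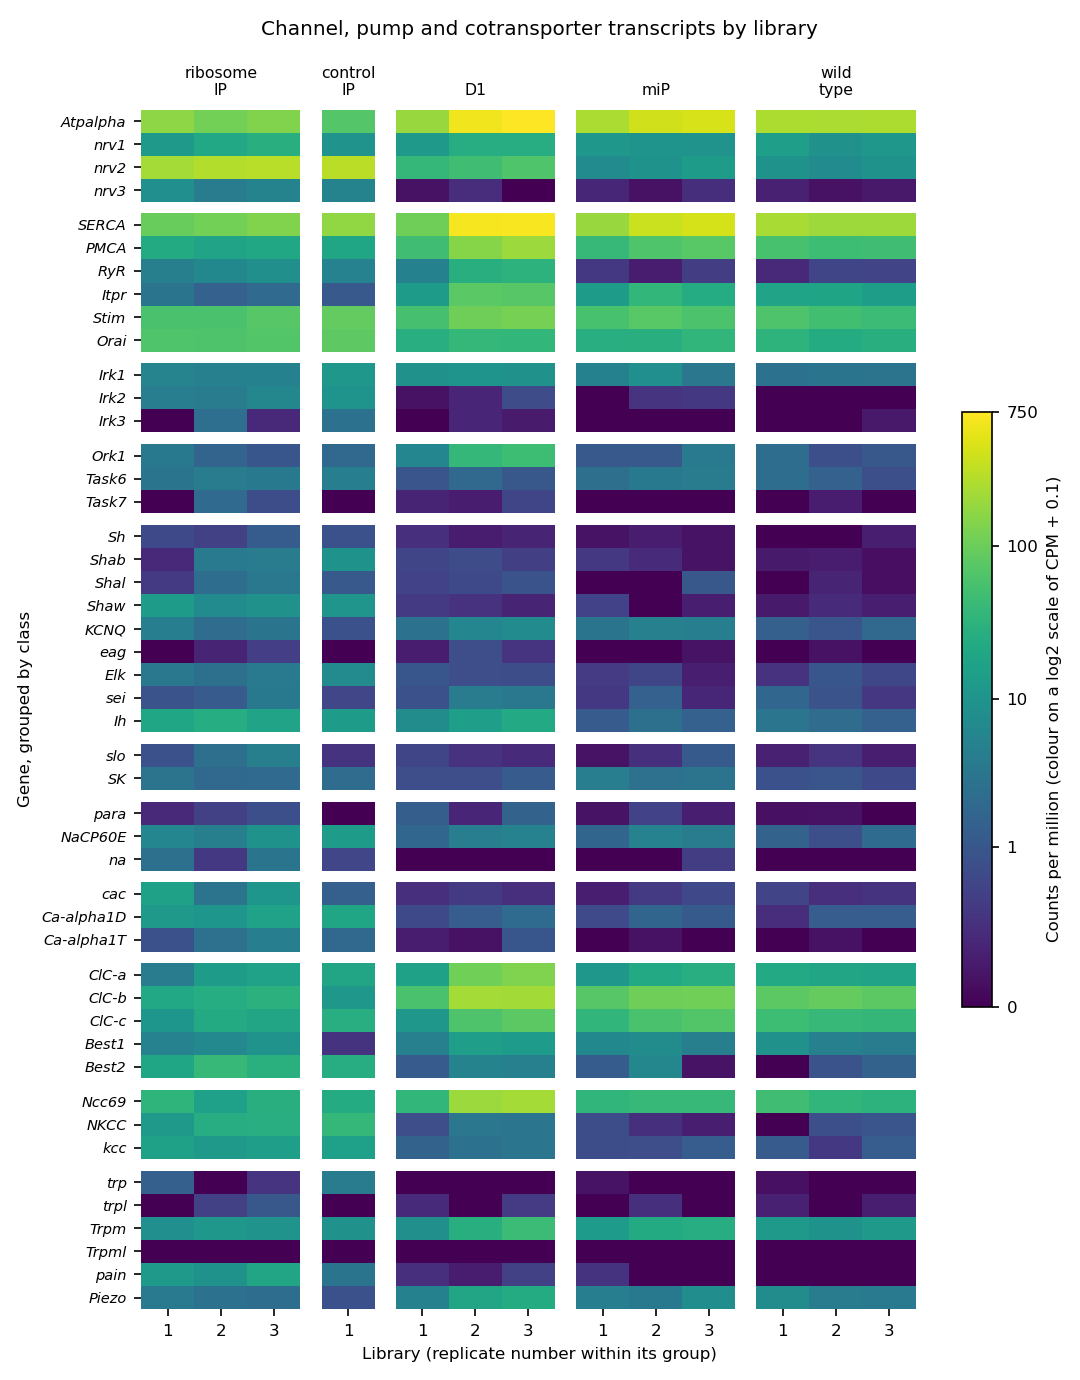
Level of each of the 47 genes (rows, grouped by class) in each of the 13 libraries (columns, by group and replicate number), with colour giving CPM on a log2 scale of CPM + 0.1. Atpalpha and SERCA are bright in every library, nrv2 is brightest in the IP libraries, and most voltage-gated channels are dark in the 9 sorted libraries.

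Per length, Atpalpha, the catalytic subunit of the Na,K-ATPase, had the highest mean level in wild-type cells at 31.0 ± 0.718 TPM (SD, n = 3). The next genes in order were ClC-b, related to the lysosomal chloride-proton exchanger ClC-7 of mammals, at 26.5 ± 2.43 TPM and SERCA, the calcium pump of the endoplasmic reticulum, at 21.8 ± 1.72 TPM. Stim, the calcium sensor of that store, stood at 14.6 ± 2.64 TPM. ClC-c, related to mammalian ClC-3, was at 8.66 ± 0.868 TPM and Ncc69, a sodium-potassium-chloride cotransporter, at 6.40 ± 1.56 TPM. Each of these 6 genes differed from the next of the 6 by more than the larger of their SDs, whereas Ncc69 and PMCA, the plasma membrane calcium pump at 5.47 ± 0.61 TPM, differed by less. Among potassium channels of wild-type cells the highest level was that of Irk1, an inward rectifier, at 0.461 ± 0.0257 TPM, followed by KCNQ at 0.301 ± 0.10 TPM. The spreads of KCNQ, sei, Task6 and Ork1 overlapped. Exons of other genes overlap 61.04% of the exonic bases of Irk1, 40.53% of PMCA, 27.43% of KCNQ, 16.03% of SERCA and 14.58% of sei. Counts of these 5 genes may include reads of the overlapping genes or lack reads of the shared bases, which bears on their places in the order. All voltage-gated calcium channels together reached 0.0977 TPM in wild type, and all sodium and sodium leak channels 0.0807 TPM.

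The order of the genes was not the same in the IPs. In the ribosome IPs nrv2, a beta subunit of the Na,K-ATPase that the alpha subunit needs for its transport to the membrane, led the list at 61.9 ± 13.6 TPM (SD, n = 3), and it led in the control IP too at 77.8 TPM. Stim at 17.8 ± 3.97 TPM and Atpalpha at 17.3 ± 2.63 TPM came next in the ribosome IPs, within each other's spread.

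In D1 cells, the pump subunit nrv2, the ryanodine receptor RyR, the leak channel Ork1 and the hyperpolarization-activated channel Ih were higher than in wild type, and no member was lower. These 4 genes, 12.9% of the 31 members with enough counts to be tested, passed edgeR's quasi-likelihood test at an adjusted p under 0.05 (Benjamini-Hochberg over all genes). Among all 8222 genes tested, 9.77% were called, 6.14% as higher (505 genes) and 3.62% as lower (298 genes). The median log2 fold change was 0.68 over the tested members and 0.00 over all tested genes. A filter on low counts admits some genes only through the group in which they are high, so the counts of tested members describe those 31 and not the full list.

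The scaling bears on these counts. D1 replicates 2 and 3 had scaling factors of 1.52 and 1.58, against 0.798 to 0.831 in wild type, so fitted changes are smaller than ratios of CPM. With library totals alone the median of all genes shifted to 0.70, the calls became 1450 higher and 116 lower, and 9 members were higher, where 17.6% of all genes were. It shifted by less between D1 and miP (0.04 scaled and 0.51 with totals alone), between miP and wild type (-0.01 and 0.22) and between ribosome IP and control IP (0.11 and -0.27). Changes given are those of the scaled fit.

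In the Na,K-ATPase, nrv2 had 37.4, 47.8 and 63.5 CPM in D1, against 9.32, 7.08 and 8.93 CPM in wild type. Every D1 library lay above every wild-type library. The log2 fold change was 1.86 ± 0.24 (SE), a 3.63-fold rise, with an adjusted p of 0.00116 in the edgeR test. The gene for the related beta subunit nrv1 lies next to it on the same strand (2L:6778555-6786861 for nrv1 and 2L:6789770-6798862 for nrv2, dm6). Its level was 12.4, 26.1 and 26.0 CPM in D1, against 14.4, 8.64 and 11.2 CPM in wild type. The nrv1 levels of the groups overlapped and the log2 fold change was 0.17 ± 0.26 (adjusted p 0.784, edgeR). Atpalpha had 188, 614 and 750 CPM in D1, against 251, 239 and 246 CPM in wild type, a log2 fold change of 0.27 ± 0.29 (adjusted p 0.677, edgeR). The beta subunit gene nrv3, known from the nervous system, had 5 counts in all D1 libraries together and was not tested.

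Among the calcium genes RyR, which releases calcium from the endoplasmic reticulum and is known best from muscle, had the largest change of the called members. Its level was 4.76, 27.7 and 31.2 CPM in D1, against 0.170, 0.519 and 0.498 CPM in wild type. All D1 libraries were above all wild-type ones, and D1 replicate 1 was the lowest of its group. The log2 fold change was 4.87 ± 0.68, with an adjusted p of 0.00157 in the edgeR test. RyR was at or under 0.519 CPM in every miP and wild-type library. It was tested because of its D1 levels, so its call as higher is no independent support. SERCA was at 104, 654 and 693 CPM in D1, against 232, 202 and 206 CPM in wild type, so D1 replicate 1 lay below wild type and replicates 2 and 3 above. Its log2 fold change of 0.32 ± 0.43 did not pass (adjusted p 0.738, edgeR). PMCA had 48.4, 148 and 198 CPM in D1, against 55.6, 44.8 and 48.2 CPM in wild type. Itpr had 13.3, 75.6 and 70.6 CPM in D1, against 17.4, 18.1 and 13.9 CPM in wild type. Stim had 54.6, 104 and 116 CPM in D1, against 61.0, 49.5 and 43.2 CPM in wild type. As for SERCA, D1 replicate 1 of these 3 genes lay below the highest wild-type library and replicates 2 and 3 above it. The plasma membrane pump PMCA, the other release channel Itpr, the sensor Stim and its partner channel Orai had log2 fold changes of 0.60, 0.85, 0.10 and -0.41, with adjusted p-values of 0.282, 0.278, 0.842 and 0.297 (edgeR).

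Of the potassium channels, Ork1 and Ih rose. Ork1, a two-pore channel that passes potassium at rest (X:10878054-10891250, dm6), had 6, 38.4 and 45.5 CPM in D1, against 2.21, 0.755 and 1.03 CPM in wild type. The D1 libraries did not overlap with wild type. Its log2 fold change was 3.63 ± 0.68 (adjusted p 0.00805, edgeR), and the adjusted p was 0.051 without wild-type replicate 3. Ih, which carries a mixed cation current upon hyperpolarization, had 7.34, 14.1 and 21.6 CPM in D1, against 3.11, 2.17 and 1.42 CPM in wild type, again without overlap. Its log2 fold change was 1.93 ± 0.39 (adjusted p 0.0125, edgeR). The call was lost without D1 replicate 3, wild-type replicate 2 or wild-type replicate 3, with adjusted p-values of up to 0.0674. KCNQ, a voltage-gated channel opened near rest, had 2.81, 5.98 and 7.17 CPM in D1, against 1.32, 0.944 and 1.88 CPM in wild type. The groups did not overlap, but the log2 fold change of 1.18 ± 0.37 did not pass (adjusted p 0.0755, edgeR). Exons of CG18011 and asRNA:CR45133 overlap 27.43% of its exonic bases, so its counts may include theirs or lack reads of the shared bases. Irk1 had 8.82, 10.2 and 8.72 CPM in D1, against 2.72, 3.02 and 2.84 CPM in wild type (log2 fold change 1.06 ± 0.38, adjusted p 0.12, edgeR). For Irk1, 61.04% of the exonic bases overlap exons of cnc or CG46310, and the libraries carry no strand. Its counts may include reads of those genes or lack reads of the shared bases, since the counting settings were not given. The calcium-activated channel SK and the leak channel Task6 had log2 fold changes of -0.55 and -0.91 (adjusted p 0.577 and 0.308, edgeR).

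**Figure D2:**
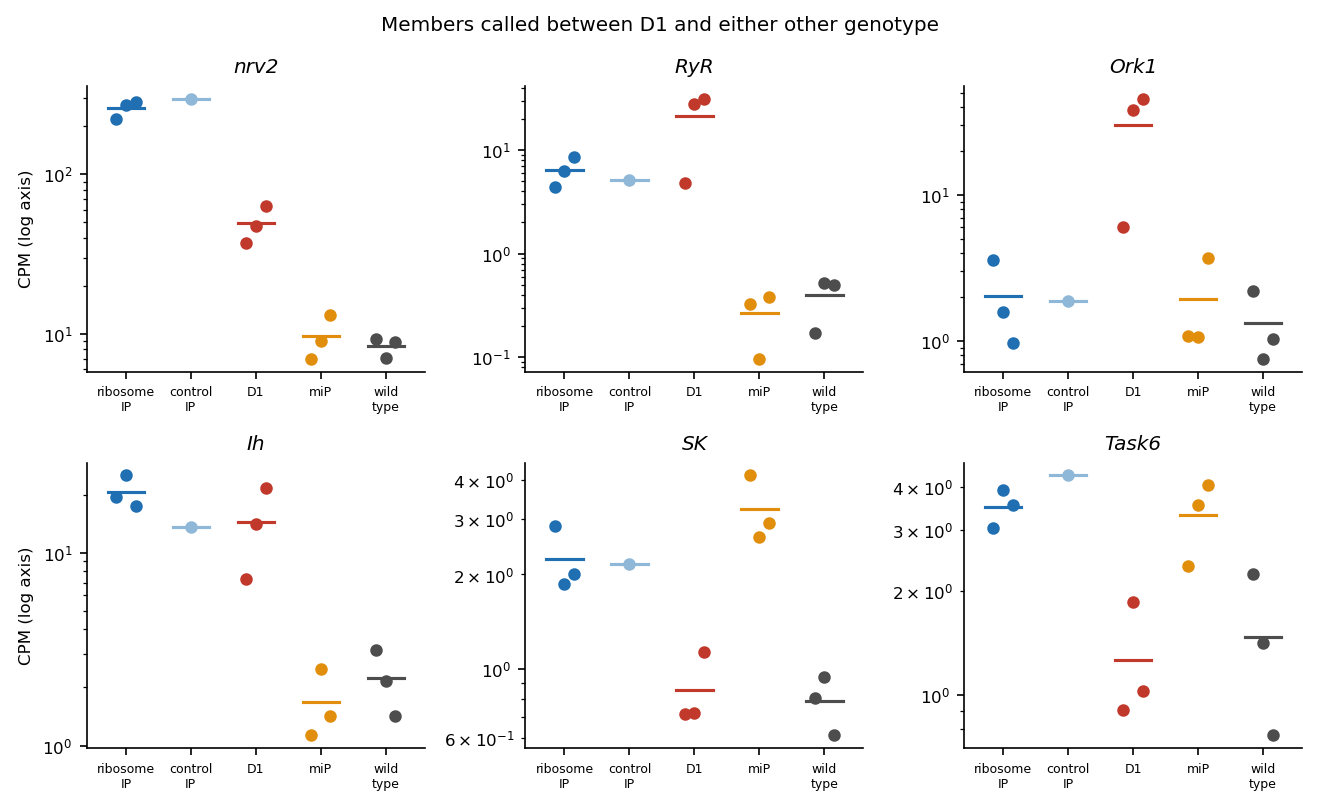
CPM (log axis) of the 6 genes called between D1 and miP, 4 of which were also called between D1 and wild type, in the ribosome IPs, the control IP, D1, miP and wild type, with 1 point for each library and a bar at the group mean. For nrv2, RyR, Ork1 and Ih all 3 D1 points lie above all miP and wild-type points, and for SK and Task6 all 3 miP points lie above the D1 points.

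No chloride channel or cotransporter passed between D1 and wild type. ClC-a, related to mammalian ClC-2, had 16.4, 107 and 134 CPM in D1, against 21.5, 19.0 and 17.7 CPM in wild type (log2 fold change 1.28 ± 0.47, adjusted p 0.125, edgeR). Ncc69 had 35.6, 199 and 228 CPM in D1, against 48.6, 34.7 and 31.3 CPM in wild type (log2 fold change 1.16 ± 0.41, adjusted p 0.113, edgeR). In both genes D1 replicates 2 and 3 were far above wild type, and replicate 1 was within or below its range. ClC-b had 58.3, 228 and 217 CPM in D1, against 79.7, 91.2 and 78.1 CPM in wild type, with a log2 fold change of 0.20 ± 0.29 (adjusted p 0.772, edgeR). ClC-c had 11.7, 62.3 and 78.0 CPM in D1, against 44.9, 39.7 and 37.3 CPM in wild type. Best1 had 4.67, 14.2 and 12.8 CPM in D1, against 8.59, 4.53 and 3.95 CPM in wild type, and Best2 had 1.14, 5.26 and 4.6 CPM in D1, against 0, 0.897 and 1.49 CPM in wild type. The groups overlapped for all 3. ClC-c and the bestrophins Best1 and Best2 had log2 fold changes of -0.53, 0.12 and 1.36 with adjusted p-values of 0.51, 0.91 and 0.62 (edgeR). The second sodium-potassium-chloride cotransporter, NKCC, had 0.715, 3.30 and 3.14 CPM in D1, against 0, 0.755 and 0.958 CPM in wild type (log2 fold change 1.22 ± 1.08, adjusted p 0.586, edgeR). The potassium-chloride cotransporter kcc had 1.57, 2.68 and 3.09 CPM in D1, against 1.15, 0.330 and 1.23 CPM in wild type (adjusted p 0.525, edgeR).

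Among the members, no sodium or sodium leak, voltage-gated calcium, TRP or mechanosensitive channel passed between D1 and wild type. The voltage-gated sodium channel para had 27, 3 and 32 counts in the D1 libraries, against 1, 1 and 0 in wild type. The ratio of summed counts, scaled by library size, was 21.7, and D1 replicate 2 was close to wild type. The ratio had a 95% counting interval of 5.77 to 183, which covers counting error only. Its adjusted p was 0.0704 (edgeR). NaCP60E had 1.76, 4.13 and 5.20 CPM in D1, against 1.57, 0.755 and 2.07 CPM in wild type, a difference within the spread (log2 fold change 0.55 ± 0.48, adjusted p 0.578, edgeR). Ca-alpha1D, an L-type calcium channel, had 0.619, 1.24 and 2.06 CPM in D1, against 0.213, 1.23 and 1.26 CPM in wild type (adjusted p 0.892, edgeR). Trpm, a cation channel linked to magnesium and zinc balance, had 8.34, 28.1 and 44.4 CPM in D1, against 12.1, 8.87 and 12.0 CPM in wild type (log2 fold change 0.46 ± 0.37, adjusted p 0.535, edgeR). The mechanosensitive channel Piezo had 4.81, 19.2 and 23.0 CPM in D1, against 7.32, 3.92 and 3.68 CPM in wild type (adjusted p 0.3, edgeR).

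Among the remaining potassium channels, Shal, which carries a fast-inactivating current in neurons, had 0.476, 0.619 and 0.891 CPM in D1, against 0, 0.142 and 0.0383 CPM in wild type. The groups did not overlap, but at these few counts the log2 fold change of 2.71 ± 1.54 did not pass (adjusted p 0.349, edgeR). The ether-a-go-go family channel sei had 0.810, 4.02 and 3.47 CPM in D1, against 1.74, 0.897 and 0.307 CPM in wild type, and Elk, of the same family, had 1, 0.722 and 0.703 CPM in D1, against 0.255, 0.991 and 0.575 CPM in wild type. Both overlapped between the groups (adjusted p 0.717 and 0.94, edgeR). The other 16 members had too few counts in sorted cells to be tested. They were nrv3, Irk2, Irk3, Task7, Sh, Shab, Shaw, eag, slo, na, cac, Ca-alpha1T, trp, trpl, Trpml and pain. None of them exceeded 1.1 CPM in a sorted library, the level of slo in miP replicate 3. Of those called in the ribosome IPs, Shaw was at 0.334, 0.258 and 0.141 CPM, slo at 0.524, 0.258 and 0.188 CPM and cac at 0.238, 0.361 and 0.234 CPM in D1. Irk2 was at 0.0476, 0.155 and 0.656 CPM, Ca-alpha1T at 0.0953, 0.0516 and 0.985 CPM, and pain at 0.238, 0.103 and 0.469 CPM in D1.

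D1 replicate 1 stood apart across the list. In scaled CPM it was the lowest of the 3 D1 libraries in 23 of the 31 tested members, and in 45.2% of all tested genes. Without it 14 members were higher than wild type and 0 lower, of 32 tested, while 12.7% of all 8607 genes tested were higher. Those 14 were Atpalpha, nrv2, SERCA, PMCA, RyR, Itpr, Ork1, KCNQ, Ih, ClC-a, ClC-b, Ncc69, Trpm and Piezo. The gains among the abundant genes were 1.70 ± 0.22 for ClC-a (adjusted p 4.09e-04), 1.55 ± 0.19 for Ncc69 (adjusted p 3.01e-04), 0.73 ± 0.20 for SERCA (adjusted p 0.0251) and 0.54 ± 0.17 for Atpalpha (adjusted p 0.0391) on the log2 scale, all in the edgeR test. RyR then had 5.27 ± 0.50 and Ork1 4.04 ± 0.51. These values rest on 2 D1 libraries.

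**Figure D3:**
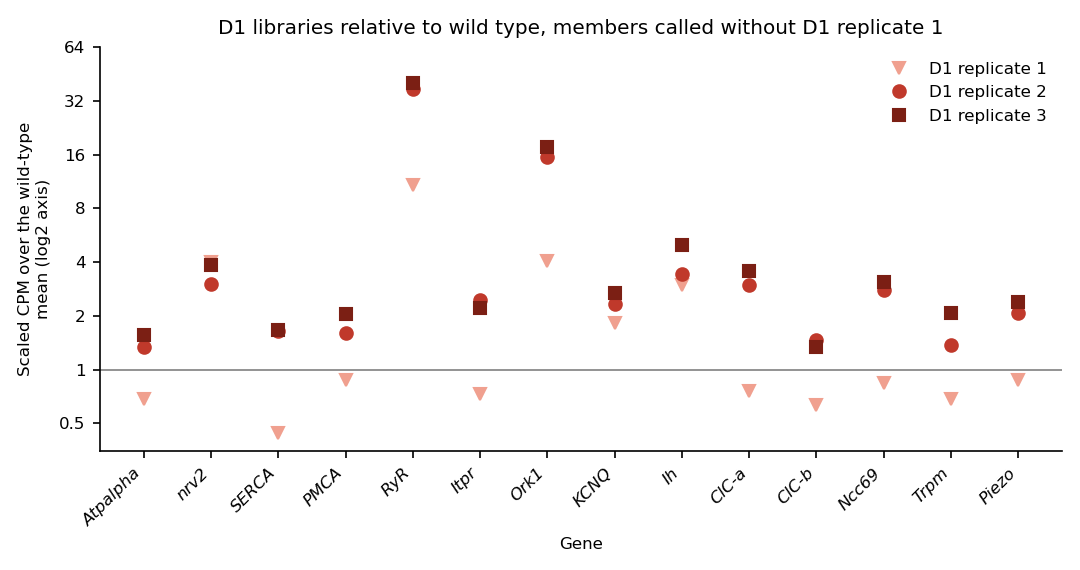
Scaled CPM of each D1 library divided by the wild-type mean (log2 axis) for the 14 members called without D1 replicate 1. Triangles for replicate 1 lie below 1 for 9 of the 14 genes, SERCA at 0.440 being the lowest, while replicates 2 and 3 lie above 1 for all 14; nrv2 at 3.99, 3.03 and 3.87 is close in all 3 libraries.

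Transcript length moved with the D1 comparison, and of the tested markers listed for other cell types only nSyb was called. Levels and sums of markers are given in unscaled CPM. The tested members had a median exonic length of 5246 nt, against 2091 nt over all tested genes. Across 8121 genes the Spearman correlation of the D1 over wild-type log2 fold change with length was 0.162, and 0.397 without D1 replicate 1. With the length trend of each library removed, ClC-a, KCNQ and Ncc69 joined the 4 called members, where 9.97% of all genes were higher. The 9 neuronal markers summed to 162 to 213 CPM in D1, against 58.5 to 74.1 CPM in wild type, with nSyb at 126, 131 and 98.1 CPM in D1, against 27.9, 25.1 and 22.3 CPM in wild type. Of these markers 4 were at 1 CPM or more in every D1 library and 3 in every wild-type library, and fne was at 0 in both groups. VGlut and Rdl were at or under 0.155 CPM in both. In the ribosome IPs nSyb was at 114, 78.4 and 90.4 CPM, against 7.02 CPM in the control IP. The 11 muscle markers summed to 150 to 175 CPM in D1, against 73.1 to 120 CPM in wild type. Tm1 alone gave 139, 140 and 147 CPM of this in D1, against 67.9, 60.4 and 66.0 CPM in wild type, while the 5 tested muscle markers had a median log2 fold change of -0.86 with 0 called. The muscle myosin gene Mhc was at 0.0953, 0.361 and 0.0469 CPM in D1, against 0, 5.43 and 0 CPM in wild type. The 3 glial markers summed to 17.0, 62.3 and 81.9 CPM in D1, against 12.7 to 14.5 CPM in wild type. Nearly all of that sum was moody, at 16.8, 61.9 and 81.6 CPM in D1, against 14.5, 12.6 and 14.3 CPM in wild type, and the glial regulator repo stayed at or under 0.155 CPM in both. The 10 main cell markers summed to 1225, 594 and 436 CPM in D1, against 77.9, 454 and 534 CPM in wild type. Of these, 9 were tested and 0 called. Markers of the ejaculatory duct and bulb summed to 5, 14.6 and 22.6 CPM in D1, against 5.06, 3.49 and 4.33 CPM in wild type. Of these, 2 were tested and 0 called. The part of length and of all these markers in the changes of the channel genes was not tested.

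In miP cells no member was called against wild type among 31 tested, where 0.0851% of all 8222 genes were called. At an unadjusted p under 0.05 there were 2 members, SK and KCNQ, and DESeq2 called SK alone, where it called 0.426% of all genes. SK, a potassium channel opened by cytosolic calcium (X:5340236-5405138, dm6), had 4.14, 2.64 and 2.91 CPM in miP, against 0.808, 0.944 and 0.613 CPM in wild type. All miP libraries lay above all wild-type libraries, with a log2 fold change of 1.86 ± 0.48 and an adjusted p of 0.729 in edgeR and 0.0312 in DESeq2. KCNQ had 2.96, 4.56 and 4.34 CPM in miP, against 1.32, 0.944 and 1.88 CPM in wild type, also without overlap (log2 fold change 1.27 ± 0.37, adjusted p 0.798, edgeR). The 4 genes that rose in D1 were not called in miP. In the miP libraries nrv2 had 6.99, 8.98 and 13.2 CPM and RyR 0.323, 0.0961 and 0.384 CPM. Ork1 had 1.08, 1.06 and 3.68 CPM and Ih 1.13, 2.5 and 1.43 CPM. Each of these ranges overlapped with wild type, with log2 fold changes of -0.04, -0.79, 0.27 and -0.63. Among the abundant members Atpalpha had 245, 397 and 443 CPM, SERCA 189, 362 and 416 CPM and PMCA 38.7, 65.0 and 74.3 CPM in miP. Itpr had 13.3, 34.9 and 24.1 CPM and Stim 55.6, 73.3 and 59.5 CPM in miP. ClC-b had 70.7, 104 and 110 CPM, ClC-c 34.2, 57.5 and 66.0 CPM, ClC-a 11.7, 21.4 and 26.5 CPM and Ncc69 33.8, 39.9 and 39.3 CPM in miP. The scaled levels of all of these genes overlapped with wild type. Among the lower members, nrv1 had 11.1, 9.94 and 9.78 CPM, Irk1 4.84, 8.12 and 3.29 CPM and NaCP60E 1.67, 4.90 and 3.95 CPM in miP. Best1 had 6.24, 7.35 and 4.39 CPM, Piezo 4.25, 3.55 and 7.47 CPM and Trpm 13, 22.5 and 25.9 CPM in miP. Of these 6 genes Trpm was the one whose scaled levels did not overlap with wild type (log2 fold change 0.64 ± 0.37, adjusted p 0.94, edgeR). Best2, NKCC, kcc, Ca-alpha1D and the members not tested in sorted cells had at most 6.15 CPM in a miP library, the level of Best2 in replicate 2. The median log2 fold change was 0.08 over the tested members and -0.01 over all genes. Across genes, the log2 fold change of miP over wild type correlated with exonic length at a Spearman rho of 0.375. Without replicate 1 of both mutants, Atpalpha, SERCA and Trpm were called higher in miP, at 0.43, 0.51 and 0.79 on the log2 scale, where 4.23% of all genes were higher.

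**Figure D4:**
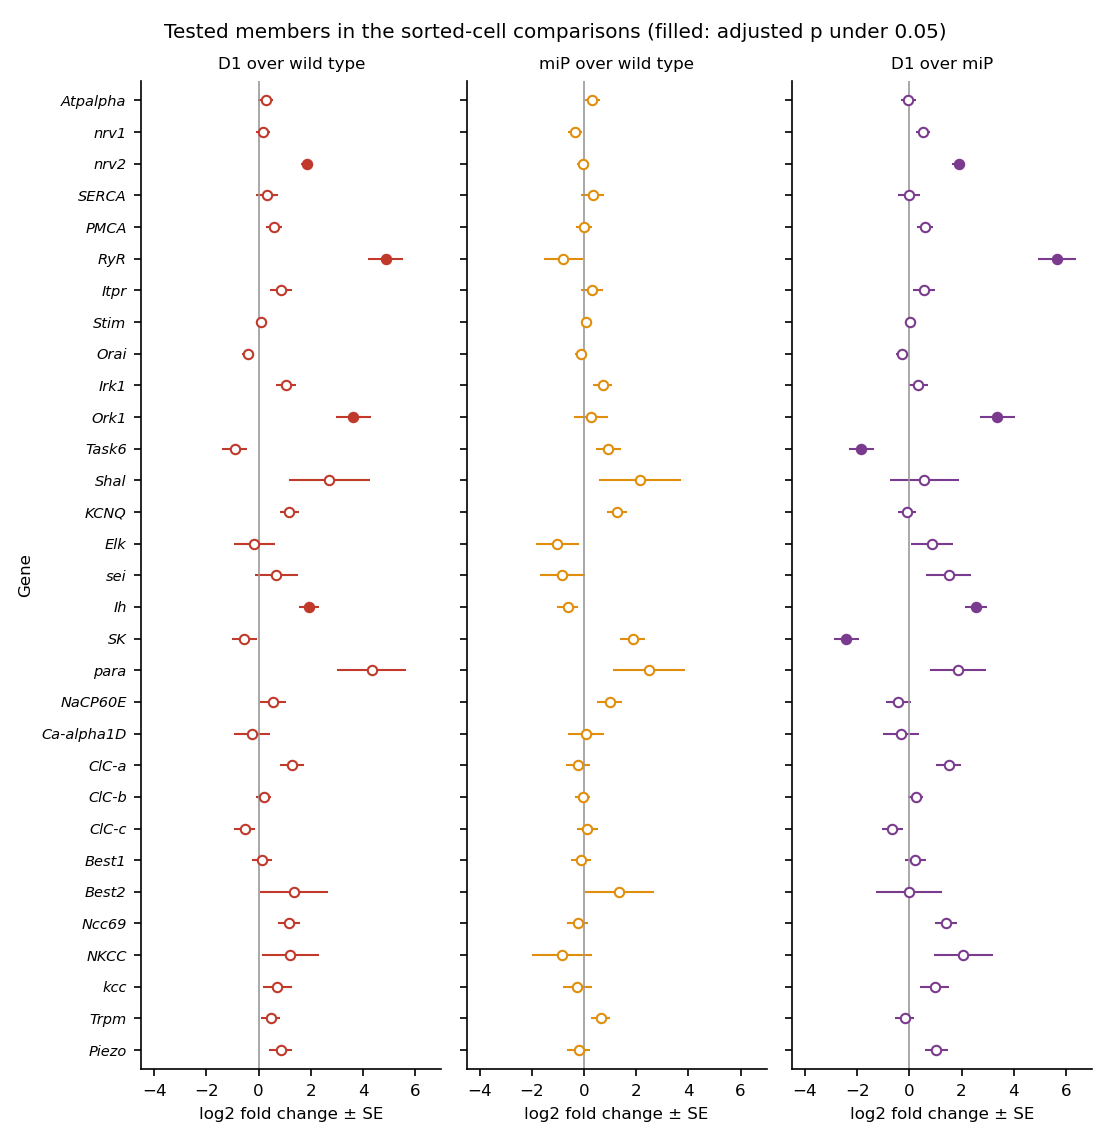
Log2 fold change with its SE for the 31 tested members in the 3 comparisons of sorted cells, where filled points passed an adjusted p of 0.05. Filled points appear for nrv2, RyR, Ork1 and Ih in D1 over wild type and in D1 over miP, for Task6 and SK below 0 in D1 over miP, and nowhere in miP over wild type.

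Set against miP directly, D1 cells had more nrv2, RyR, Ork1 and Ih and less SK and Task6 RNA. These were 6 of 31 tested members, 4 higher and 2 lower, where 10.5% of all 8222 genes were called (554 higher and 313 lower, or 1032 higher and 126 lower with library totals alone). The log2 fold changes were 1.90 ± 0.25 for nrv2, 5.66 ± 0.72 for RyR, 3.36 ± 0.67 for Ork1 and 2.56 ± 0.41 for Ih, with adjusted p-values of 9.20e-04, 8.37e-04, 0.0105 and 0.00302 (edgeR). For Ork1 the adjusted p was 0.0506 without miP replicate 2. The D1 libraries also serve in the comparison with wild type, so both results share them. RyR was tested because of its D1 levels here too, so this call is no independent support either. SK had 0.715, 0.722 and 1.13 CPM in D1, against 4.14, 2.64 and 2.91 CPM in miP, with no overlap. Its log2 fold change was -2.41 ± 0.49 (adjusted p 0.0113, edgeR), and the adjusted p was 0.054 without D1 replicate 2. Task6, a two-pore leak channel (3R:13667046-13674542, dm6), had 0.905, 1.86 and 1.03 CPM in D1, against 2.37, 3.55 and 4.06 CPM in miP. Wild-type cells were at 2.25, 1.42 and 0.767 CPM, overlapping with D1 and not with miP. The log2 fold change of Task6 was -1.84 ± 0.49 (adjusted p 0.0389, edgeR), and the call was lost in 9 of 16 alternatives. In D1 over miP ClC-a and Ncc69 had log2 fold changes of 1.51 ± 0.47 and 1.4 ± 0.41 (adjusted p 0.0706 and 0.0577, edgeR).

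Genes that work with these channels were read from 4 further lists. Beside the counts of these lists stand 6.14% of all tested genes called higher and 3.62% called lower between D1 and wild type. As for the members, the filter admits some genes only through the group in which they are high. The counts therefore describe the tested genes and not the full lists. Of 4 tested accessory channel subunits, Hk, the cytosolic partner of the Shaker channel, was higher in D1 than in wild type and 0 were lower. Hk had 22.1, 17.8 and 30.2 CPM in D1, against 1.96, 3.59 and 1.26 CPM in wild type, with no overlap (log2 fold change 2.73 ± 0.46, adjusted p 0.00452, edgeR). The Shaker channel gene Sh itself was at 0.238, 0.103 and 0.141 CPM in the D1 libraries. Of 3 regulators of cation-chloride cotransport, fray and Mo25 were higher in D1 than in wild type and Wnk was not called. The kinase gene fray, whose product acts on sodium-potassium-chloride cotransporters, had 15, 78.3 and 94.0 CPM in D1, against 7.74, 7.18 and 6.71 CPM in wild type (log2 fold change 2.27 ± 0.41, adjusted p 0.00633, edgeR). Mo25, a scaffold that activates such kinases, had 41.2, 70.4 and 77.9 CPM in D1, against 24.1, 25.0 and 17.4 CPM in wild type (log2 fold change 0.79 ± 0.21, adjusted p 0.0444, edgeR). Both regulators were higher in every D1 library than in any wild-type one. Of 14 tested calcium-handling genes, only norpA, a phospholipase C that feeds Itpr, was called, with 21.5, 44.6 and 51.2 CPM in D1, against 11.8, 9.2 and 13 CPM in wild type (log2 fold change 1.03 ± 0.24, adjusted p 0.0234, edgeR).

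Of 18 tested other channels, 5 were higher in D1 than in wild type and 0 lower, namely Inx2, ppk20, Cng, nompC and TrpA1. The gap junction gene Inx2 had 10.6, 9.08 and 17.4 CPM in D1, against 1.15, 1.37 and 1.69 CPM in wild type (log2 fold change 2.46 ± 0.39, adjusted p 0.00305, edgeR). The gene ppk20, of the epithelial sodium channel family, had 34.1, 21.0 and 27.2 CPM in D1, against 2.72, 1.56 and 1.92 CPM in wild type (log2 fold change 3.17 ± 0.47, adjusted p 0.00216, edgeR). Every D1 library was above every wild-type library for both. The cyclic nucleotide-gated channel Cng had 4.34, 18.7 and 14 CPM in D1, against 0.213, 0.425 and 0.153 CPM in wild type. The mechanosensory channel nompC had 2.14, 3.15 and 2.58 CPM in D1, against 0.0851, 0 and 0.0383 CPM in wild type. The D1 libraries again lay above wild type, with adjusted p-values of 0.0106 for Cng and 0.01 for nompC (edgeR). TrpA1 had 0.953, 4.02 and 2.25 CPM in D1, against 0 CPM in every wild-type library. Cng, nompC and TrpA1 were at or under 0.714 CPM in every miP and wild-type library. They were tested because of their D1 levels, so their calls as higher are no independent support. In miP, ppk20 was the one gene of the 4 lists called against wild type. It had 0, 0 and 0.0549 CPM in miP, against 2.72, 1.56 and 1.92 CPM in wild type, so it was lower in miP (adjusted p 0.0198, edgeR). In D1 over miP 1 of 4 accessory subunits, 1 of 14 calcium-handling genes, 4 of 18 other channels and 1 of 3 cotransport regulators were higher and 0 lower, where 6.74% of all genes were higher and 3.81% lower. The higher genes there were Hk, norpA, Cng, Inx2, nompC, ppk20 and fray, all of which were also called between D1 and wild type, with the same D1 libraries.

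In the ribosome IPs, Best1, a bestrophin chloride channel, was the one member called above the control IP of 45 tested, and 0 were called lower. Of all 12723 genes tested, 3.52% were called, 414 higher and 34 lower, or 221 higher and 114 lower with library totals alone. Best1 had 5.01, 6.50 and 9.74 CPM in the ribosome IPs, against 0.270 CPM in the control IP, which was 1 count. The ratio of scaled counts was 35 with a 95% counting interval of 6.25 to 1388, and the adjusted p was 0.0441 (edgeR). It was 0.0607 with library totals alone and 0.124 without ribosome IP replicate 3. Best1 was tested because of its ribosome IP levels, so its call as higher is no independent support. The test assumes that the lone control would vary as the ribosome IPs did, and the control library was the smallest of the 13.

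The other members did not pass between ribosome IP and control IP. Atpalpha had 164, 112 and 140 CPM in the ribosome IPs, against 68.1 CPM in the control IP (log2 fold change 1.42 ± 0.35, adjusted p 0.0763, edgeR). ClC-b had 20.8, 24.9 and 29.5 CPM in the ribosome IPs, against 11.1 CPM in the control IP (log2 fold change 1.56 ± 0.36, adjusted p 0.0682, edgeR). The channel gene pain, which acts in heat and touch nociception, had 12.2, 9.30 and 18.6 CPM in the ribosome IPs, against 2.97 CPM in the control IP (log2 fold change 2.54 ± 0.61, adjusted p 0.0725, edgeR). In these 3 genes all ribosome IPs were above the control. DESeq2 called all of them, as well as Best1 and the synaptic calcium channel cac, as higher, where it called 7.66% of all genes higher. The beta subunit nrv2 had 223, 272 and 286 CPM in the ribosome IPs, against 297 CPM in the control IP, with a log2 fold change of 0.19 ± 0.25 (adjusted p 0.7, edgeR). Among the further lists 2 of 15 calcium-handling genes and 4 of 32 other channels were higher in the ribosome IPs than in the control, where 3.25% of all genes were higher. With library totals alone these were 1 of 15 and 0 of 32. In the scaled fit 0 of 11 accessory subunits and 0 of 3 cotransport regulators were called.

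**Figure D5:**
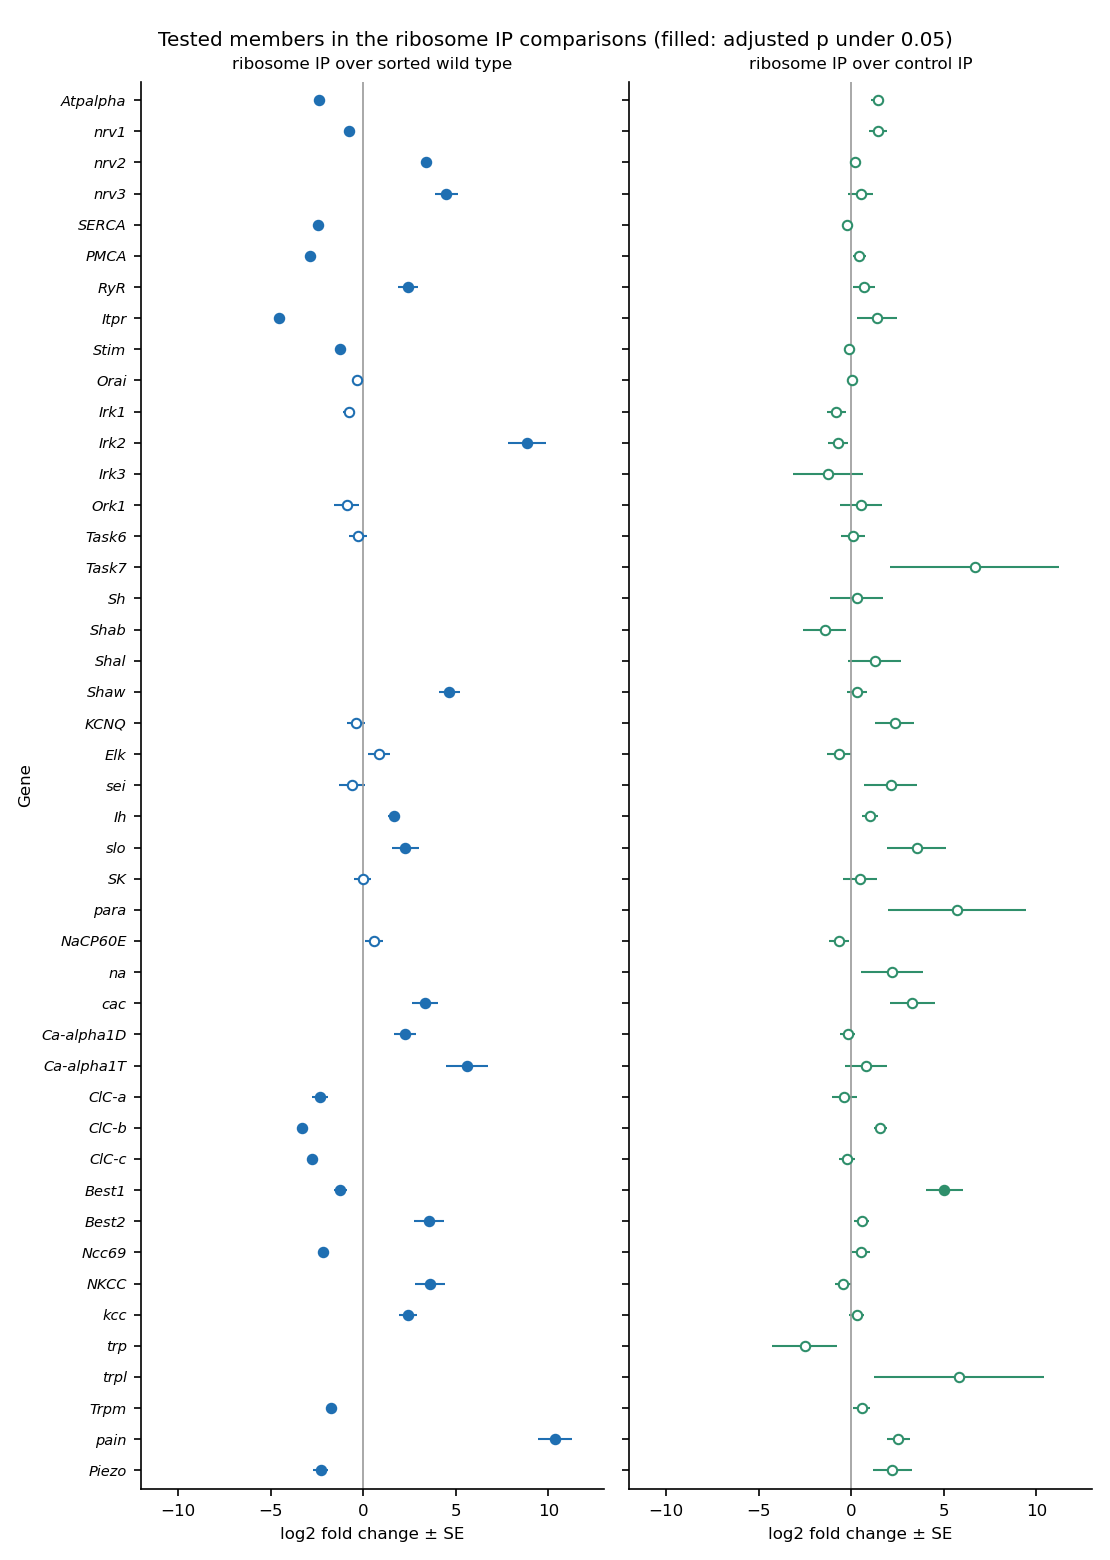
Log2 fold change with its SE for tested members in the ribosome IPs over sorted wild-type cells (36 genes) and over the control IP (45 genes), where filled points passed an adjusted p of 0.05. Filled points lie on both sides of 0 in the first panel and appear for Best1 alone in the second; points set against a group with 0 counts (Irk2 and pain on the left, Task7, para and trpl on the right) depend on the fit's prior count and are no measure of size.

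Against sorted wild-type cells, the ribosome IPs held more RNA of nrv2, nrv3 and several channels that were low in sorted cells, such as Shaw, cac and pain, and less of the pumps, chloride channels and calcium-store genes that were abundant in sorted cells. Of 36 tested members 14 were higher and 13 lower, together 75% of the members, where 80.6% of all 11621 genes were called (5705 higher and 3656 lower). As between D1 and wild type, the filter admits some genes only through the group in which they are high. The counts here, and those of the further lists, describe the tested genes and not the full lists. Except nrv2 and Ih, the higher members were tested because of their ribosome IP levels. Their calls as higher are no independent support. Most genes differed, and isolation, cell mixture and transgene differed with the group, so these cannot be told apart. Markers of the ejaculatory duct and bulb summed to 1986 to 2535 CPM in the ribosome IPs and 7237 CPM in the control IP, against 3.49 to 5.06 CPM in sorted wild type, and main cell markers to 7627 to 11326 CPM in the ribosome IPs and 17980 CPM in the control IP, against 77.9 to 534 CPM. Their part in the changes was not tested. The median log2 fold change was 0.76 over all genes and -0.31 over tested members in the scaled fit, against 2.33 and 1.24 with library totals alone. With totals alone 21 members were higher and 6 lower, and 80.5% of all genes were called, 8160 higher and 1193 lower.

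Lower in the ribosome IPs under both scalings were Atpalpha, SERCA, PMCA, Itpr, ClC-b and ClC-c. Atpalpha had 164, 112 and 140 CPM in the ribosome IPs, against 251, 239 and 246 CPM in sorted wild type (log2 fold change -2.38 ± 0.22, or -0.82 with library totals alone). SERCA had 94.2, 111 and 139 CPM in the ribosome IPs, against 232, 202 and 206 CPM in sorted wild type. PMCA had 22.2, 17.8 and 19.9 CPM in the ribosome IPs, against 55.6, 44.8 and 48.2 CPM in sorted wild type. Each of the 3 pumps was lower in every ribosome IP than in any sorted wild-type library. Exons of other genes overlap 40.53% of the exonic bases of PMCA and 16.03% of those of SERCA. Their counts may include reads of those genes or lack reads of the shared bases. Itpr, the inositol trisphosphate receptor, had 2.95, 1.45 and 2.01 CPM in the ribosome IPs and 1.08 CPM in the control IP, against 17.4, 18.1 and 13.9 CPM in sorted wild type (log2 fold change -4.53 ± 0.31, or -2.97 with library totals alone). ClC-b had 20.8, 24.9 and 29.5 CPM in the ribosome IPs, against 79.7, 91.2 and 78.1 CPM in sorted wild type. ClC-c had 10.7, 22.2 and 18.6 CPM in the ribosome IPs, against 44.9, 39.7 and 37.3 CPM in sorted wild type. In none of these genes did the groups overlap, and the adjusted p-values of the 6 genes lay at 1.25e-05 or below in the scaled edgeR fit.

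Another 7 members were lower in the scaled fit but not with library totals alone. They were nrv1, Stim, ClC-a, Best1, Ncc69, Trpm and Piezo. With totals alone, ClC-a, Ncc69, Trpm and Piezo had log2 fold changes of -0.75, -0.61, -0.16 and -0.78 that did not pass, Stim and Best1 turned to 0.29 and 0.32 without passing, and nrv1 turned to 0.83 and was called higher. Ncc69 had 32.6, 15.2 and 27.5 CPM in the ribosome IPs, against 48.6, 34.7 and 31.3 CPM in sorted wild type, and ClC-a had 3.94, 13.4 and 16.8 CPM in the ribosome IPs, against 21.5, 19.0 and 17.7 CPM in sorted wild type. Stim had 57.4, 58.2 and 72.0 CPM in the ribosome IPs, against 61.0, 49.5 and 43.2 CPM in sorted wild type, so its unscaled levels overlapped. Piezo had 3.67, 2.80 and 2.24 CPM in the ribosome IPs, against 7.32, 3.92 and 3.68 CPM in sorted wild type. By CPM the groups overlapped for Ncc69 and Stim and not for ClC-a and Piezo. Trpm had 8.23, 11.4 and 9.80 CPM in the ribosome IPs, against 12.1, 8.87 and 12.0 CPM in sorted wild type. Unscaled levels of the 2 groups overlapped for Trpm, and also for nrv1 and Best1. The beta subunit nrv1 had 12.3, 20.7 and 27.7 CPM in the ribosome IPs, against 14.4, 8.64 and 11.2 CPM in sorted wild type, and Best1 had 5.01, 6.50 and 9.74 CPM in the ribosome IPs, against 8.59, 4.53 and 3.95 CPM in sorted wild type. The nrv1 call was also lost in 8 of 15 alternatives, with adjusted p-values of up to 0.223 over the edgeR and DESeq2 fits. These were RLE factors, the filter at 5 CPM, DESeq2, the replicate block and the fits without any 1 of 4 libraries. The Best1 call was also lost without ribosome IP replicate 1 or 2 (adjusted p 0.056 and 0.0615, edgeR).

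All 14 members that the scaled fit called higher were also called higher with library totals alone. The beta subunit nrv2 had 223, 272 and 286 CPM in the ribosome IPs, against 9.32, 7.08 and 8.93 CPM in sorted wild type (log2 fold change 3.37 ± 0.19), but the control IP was as high at 297 CPM. The beta subunit nrv3 had 8.14, 3.93 and 5.33 CPM in the ribosome IPs and 5.4 CPM in the control IP, against 0.128, 0.0472 and 0.0767 CPM in sorted wild type. RyR had 4.38, 6.35 and 8.54 CPM in the ribosome IPs and 5.13 CPM in the control IP, against 0.170, 0.519 and 0.498 CPM in sorted wild type. The control IP lay within or above the range of the ribosome IPs for nrv2, nrv3 and RyR. Among potassium channels, Ih had 19.4, 25.1 and 17.4 CPM in the ribosome IPs and 13.5 CPM in the control IP, against 3.11, 2.17 and 1.42 CPM in sorted wild type. Shaw, a voltage-gated channel, had 13.2, 7.15 and 8.77 CPM in the ribosome IPs and 10.5 CPM in the control IP, against 0.0851, 0.189 and 0.115 CPM in sorted wild type. Irk2 had 46, 82 and 106 counts in the ribosome IPs and 0 in every sorted wild-type library, at least 37-fold more against a floor of 3 counts over the group, and the control IP at 10 CPM was above the ribosome IPs at 4.12, 3.83 and 6.08 CPM. The large-conductance channel slo, opened by calcium and voltage, had 0.805, 2.43 and 4.41 CPM in the ribosome IPs and 0.270 CPM in the control IP, against 0.128, 0.283 and 0.115 CPM in sorted wild type. Its adjusted p was 0.0182 (edgeR) and lay above 0.05 in 5 of 14 alternatives, reaching 0.0755 without wild-type replicate 3.

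The higher members also included calcium channels, a chloride channel and both low cotransporters. The calcium channel cac had 16.6, 2.90 and 10.8 CPM in the ribosome IPs and 1.35 CPM in the control IP, against 0.510, 0.236 and 0.268 CPM in sorted wild type. Ca-alpha1D had 11.9, 10.6 and 17.1 CPM in the ribosome IPs and 19.7 CPM in the control IP, against 0.213, 1.23 and 1.26 CPM in sorted wild type. Ca-alpha1T, a T-type channel, had 0.805, 2.57 and 4.36 CPM in the ribosome IPs and 1.89 CPM in the control IP, against 0, 0.0472 and 0 CPM in sorted wild type. These were 140 counts in the ribosome IPs together and 1 in sorted wild type, a ratio of scaled counts of 66.4 with a 95% counting interval of 11.7 to 2640. The ribosome IPs exceeded every sorted wild-type library in all 3 genes. Best2 had 19.7, 39.0 and 28.4 CPM in the ribosome IPs and 25.9 CPM in the control IP, against 0, 0.897 and 1.49 CPM in sorted wild type. The cotransporter NKCC had 12.5, 25.7 and 26.7 CPM in the ribosome IPs and 38.1 CPM in the control IP, against 0, 0.755 and 0.958 CPM in sorted wild type. The potassium-chloride cotransporter kcc had 16.6, 12.1 and 14.5 CPM in the ribosome IPs and 15.4 CPM in the control IP, against 1.15, 0.330 and 1.23 CPM in sorted wild type. The control IP was within or above the ribosome IP range for Ca-alpha1D, Ca-alpha1T, Best2, NKCC and kcc. The nociception channel pain had 0 counts in sorted wild type and was at least 104-fold higher in the ribosome IPs. Of the further lists, 18 of 29 other channels were higher and 4 lower in the ribosome IPs than in sorted wild type, where 49.1% of all genes were higher and 31.5% lower. Of 15 calcium-handling genes 4 were higher and 7 lower, of 6 accessory subunits 1 was higher and 0 lower, and of 3 cotransport regulators 0 were higher and 2 lower. With library totals alone, where 70.2% of all genes were higher and 10.3% lower, 23 of the 29 other channels were higher and 2 lower, 8 of the 15 calcium-handling genes higher and 3 lower, 3 of the 6 accessory subunits higher and 2 of the 3 cotransport regulators higher.

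Another 9 tested members were not called in this comparison in the scaled fit. With library totals alone, Orai, Task6, KCNQ, Elk, SK and NaCP60E were called higher, at log2 fold changes of 1.23, 1.25, 1.18, 2.41, 1.5 and 2.15, with adjusted p-values of 0.000183, 0.0414, 0.0468, 0.00405, 0.0149 and 0.00345 (edgeR). Orai, the store-operated calcium channel of the plasma membrane, had 64.6, 62.6 and 67.5 CPM in the ribosome IPs and 82.1 CPM in the control IP, against 31.9, 23.3 and 27.7 CPM in sorted wild type. Its CPM did not overlap, yet the scaled log2 fold change was -0.33 ± 0.16 (adjusted p 0.0882, edgeR). Irk1 had a log2 fold change of -0.77 ± 0.33, with an adjusted p of 0.0578 (edgeR). The sodium channel NaCP60E had 5.82, 4.44 and 9.40 CPM in the ribosome IPs, against 1.57, 0.755 and 2.07 CPM in sorted wild type (adjusted p 0.313, edgeR). Ork1 had 3.58, 1.59 and 0.974 CPM, Task6 3.04, 3.93 and 3.55 CPM, KCNQ 4.29, 2.20 and 2.98 CPM and SK 2.86, 1.87 and 2.01 CPM in the ribosome IPs. Ork1, Task6, KCNQ, Elk, sei and SK had scaled log2 fold changes between -0.91 and 0.84, and their scaled levels overlapped. Irk3, Task7, Sh, Shab, Shal, eag, para, na, trp, trpl and Trpml were not tested here. Of these Shab, a delayed rectifier, reached the highest level in a ribosome IP, with 0.179, 3.69 and 3.95 CPM in the ribosome IPs and 9.19 CPM in the control IP. The light-gated cascade channels trp and trpl had at most 1.34 and 1.03 CPM in a ribosome IP.

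Transcript length moved with this comparison too. Over 11506 genes the log2 fold change of this comparison correlated with exonic length at a Spearman rho of -0.417. With the length trend removed 15 members were higher and 13 lower, and 81.5% of all genes were called, 4217 higher and 5160 lower.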

How the data were processed

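RNA from 9 libraries of sorted secondary cells, 3 ribosome IPs and 1 control IP was analysed from the deposited table of raw read counts per gene, which the authors made with STAR and HTSeq on dm6, per the submitters' processing notes; their versions and settings were not given in the sources used here. Per the labels' protocols, libraries were made from 2 ng RNA with poly(dT) primers (SMARTer, Nextera XT) and read as single reads of 100 nt. They carry no strand and no molecular barcodes, so intervals cover counting error only. Replicates are biological, per the series' design text.

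The Ensembl release 115 annotation of dm6 gave gene positions, synonyms and exonic lengths. Counts were tested with edgeR 4.0.16 in R 4.3.3 (quasi-likelihood F-test, TMM scaling, filterByExpr, Benjamini-Hochberg at 0.05), with the 9 sorted libraries in a single fit, the ribosome IPs fitted with wild type, and the ribosome IPs fitted with the control. Standard errors are the log2 fold change divided by the root of F. CPM divide by library totals, and TPM by exonic length as well. Alternatives were RLE and upper-quartile factors, library totals alone, other filters, DESeq2 1.42.0, other sets of libraries, removal of a length trend, each library left out and a block for the replicate number. Between D1 and miP, deviations from the group mean of same-numbered libraries correlated at 0.432, 0.169 and 0.312. D1 replicate 2 correlated as highly with miP replicate 3, at 0.17. The numbers served only as a block in an alternative fit, and the main fits were unpaired. No label names a shared batch, replicate 1 had the lowest scaling factor in both groups, and whether the numbers mark a batch was not tested. Between the other groups at least 1 of the 3 correlations of same-numbered libraries was under 0.1. The fits were tested on simulated data. Python 3.11.15, pandas 2.3.3, scipy 1.17.1 and matplotlib 3.10.9 were used.

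All 47 members could be named. Values by library were given, in the comparisons that called them, for called members, and for the highest per class in wild type; other groups' values of low members are given as ranges or in the plot of levels by library. The members and lists were chosen with earlier results of these data known. No sequences are shown.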

Additional observations from a re-analysis of the deposited data

How the results depend on the processing

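In D1 against wild type 4 members were called, 9 with library totals alone, 9 with DESeq2, 7 with the length trend removed and 15 without replicate 1 of both mutants. Of all genes tested 9.77%, 19%, 15.8%, 17.2% and 33.5% were called, in the same order. Leaving out single libraries gave 2 to 14 members. In miP against wild type 0 members were called, 1 with DESeq2 and 3 without replicate 1 of both mutants, and 0 without any single library. The first 3 of these fits called 0.0851%, 0.426% and 11.6% of all genes. In D1 against miP 6 members were called, 12 without replicate 1 of both mutants, and 4 to 12 without single libraries. The share of all genes called was 10.5%, and 20.4% without replicate 1 of both mutants. In the ribosome IPs against sorted wild type 27 members were called, and 26 to 31 without single libraries. Against the control IP 1 was called, 0 with library totals alone and 5 with DESeq2, and 0 to 7 without single libraries. Calls over all genes ran between 370 and 2859 for D1 against wild type (803 as reported), 0 and 993 for miP against wild type (7), 475 and 1739 for D1 against miP (867), 7230 and 9775 for ribosome IP against sorted wild type (9361) and 1 and 1914 for ribosome IP against control IP (448). The most calls came without replicate 1 of both mutants in the first 3, without a filter in the fourth and without ribosome IP replicate 1 in the last; the causes were not tested. At a minimum of 5 CPM in every library of a group, 16 of 47 members (34%) were detected in D1. There were 13 (27.7%) in miP, 13 (27.7%) in wild type, 19 (40.4%) in the ribosome IPs and 25 (53.2%) in the control IP. The same minimum was passed by 27.9%, 26.4%, 27.3%, 48.1% and 53.2% of all genes, in that order.

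With library totals alone, log2 fold changes in the ribosome IPs against sorted wild type turned positive and passed for nrv1 (0.83), Orai (1.23), Task6 (1.25), KCNQ (1.18) and SK (1.5), and turned positive without passing for Stim (0.29), Best1 (0.32), Irk1 (0.79), Ork1 (0.59) and sei (0.94), while the median of all genes moved to 2.33. With the replicate number as a block, 4 members were called in D1 against wild type, 0 in miP against wild type, 6 in D1 against miP and 25 in the ribosome IPs against sorted wild type. Of all genes 9.97%, 0.0486%, 10.6% and 76.2% were called with the block, in the same order. In the last of these comparisons the calls of nrv1 and slo were lost, and the block changed no other member call. For ribosome IP against control IP, no paired analysis was possible with only 1 control IP, whose title carries no replicate number. Counted over members found under their listed symbol, calls were 4 of 27 in D1 and 0 of 27 in miP against wild type, 6 of 27 in D1 against miP, 24 of 32 in the ribosome IPs against sorted wild type and 1 of 41 against the control IP, an alternative chosen after seeing the data. In the control IP, of 3701155 counts, 1 count was worth 0.270 CPM, and low channels there rest on few counts.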
